A study of Mus musculus with 27 samples.

Results

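Control endothelial cells (EC) and control peritoneal macrophages (PMAC) of the mouse are the libraries labelled control in a series on chylomicrons, endothelial vesicles and macrophage inflammation. The comparison holds the 3 EC control and the 3 PMAC control libraries of polyadenylated RNA, 6 of 27 libraries in all, and the 13701 of 55291 genes whose mean was at least 1 RPM (reads per 1000000 reads of the library) in either cell type. The series further holds EC and PMAC libraries labelled chylomicron-treated or SRBI knockdown, 3 of each, and small RNA libraries of EC medium. SR-BI is the lipoprotein receptor encoded by Scarb1. The labels give the organism, the cell type and the treatment name, and no strain, sex, age, vessel bed, dose, time or control agent. Their extraction text names murine cell lines called PL and PLA without tying either to a group. Nothing says that the 3 libraries of a group came from separate cultures or animals, so their spread may be technical.

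Endothelial cells line blood vessels, form a barrier through cadherin junctions and basement membrane, and take up lipoprotein particles from plasma through receptors such as SR-BI. Peritoneal macrophages live in the body cavity, engulf particles and dying cells, and carry receptors for microbial products and for modified lipoproteins. Vesicles and soluble ligands released by the first kind of cell can reach receptors on the second.

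EC and PMAC libraries stood in tables that the authors scaled separately, and no table held both cell types. Cell type and table cannot be told apart, so the levels are described without a test. A gene is called higher where the group means differed at least 4-fold and the 3 libraries of a cell type all lay above the 3 of the other. A group with fewer than 3 reads in its 3 libraries was set to 3 reads for the ratio. In bulk RNA, fewer cells of a type and less RNA per cell cannot be told apart.

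The EC control libraries had gene totals of 40046820 to 46700757 reads, and the totals of the PMAC control libraries were 42775013 to 45991856 reads. EC control replicate 1 stood apart in mitochondrial transcripts, which took 8.35% of its reads against 1.83% and 1.46% in replicates 2 and 3 and 0.886% to 1.06% in the PMAC controls. Without it, 3249 genes were higher in EC and 1314 higher in PMAC, and of the genes named by rule mt-Cytb and Ifnar2 were no longer called.

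The defining genes fell on the labelled side. Cdh5 encodes VE-cadherin, the adhesion protein of endothelial junctions (chromosome 8, 104101613 to 104144504, GRCm38). Its levels were 323, 389 and 376 RPM in the EC libraries and 0.164, 0.0689 and 0 RPM in the PMAC libraries. The trace in PMAC amounted to 10 reads in 3 libraries. Pecam1, an endothelial junction receptor (chromosome 11, 106654213 to 106715281), stood at 162, 179 and 184 RPM in EC and 0, 0.0919 and 0.217 RPM in PMAC. Fn1 encodes fibronectin (chromosome 1, 71585473 to 71653280) and was abundant on both sides, at 13957, 18694 and 16093 RPM in EC and 1783, 2077 and 1866 RPM in PMAC. The groups did not overlap, and the EC mean was 8.51-fold higher, far less than for the junction genes.

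On the macrophage side, Lyz2 encodes lysozyme (chromosome 10, 117277541 to 117282272) and was the most abundant transcript of PMAC. It reached 41312, 41982 and 39815 RPM in PMAC and 0.0944, 0.300 and 0.599 RPM in EC. Reads of Lyz2 and its near-identical neighbour Lyz1 (4241 RPM in PMAC, 0 reads in EC) may have been split between them. Adgre1, the F4/80 antigen (chromosome 17, 57358581 to 57483529), stood at 3448, 3472 and 3353 RPM in PMAC, and 1 read was found in the 3 EC libraries. Ptprc encodes CD45, the pan-leukocyte phosphatase (chromosome 1, 138062859 to 138175756), and stood at 385, 412 and 402 RPM in PMAC and 0.142, 0 and 0 RPM in EC. Apart from Fn1, these genes were at or near 0 on the opposite side, and neither group of libraries overlapped the other.

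Of the 13701 genes, 3241 (23.7%) were called higher in EC and 1329 (9.7%) higher in PMAC. A further 9131 genes (66.6%) were called in neither direction, and 4049 of all genes (29.6%) lay within 1.5-fold. Without the fold criterion, the 3 EC libraries all lay above the 3 PMAC libraries in 59.6% of genes and below them in 30.4%. The median log2 ratio of EC over PMAC over all genes was 0.54, and it was 0.04 with median-of-ratios scaling and 0.03 with TMM scaling. A ratio of a list is therefore read against 0.54, and its counts of calls against 23.7% and 9.7%. EC had the larger share of the calls, 70.9%, and 61.3% and 61.0% under those scalings.

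The PMAC transcriptome was concentrated in fewer, more abundant genes. The 100 most abundant genes took 32.3% of PMAC reads and 23.3% of EC reads. Genes called higher in PMAC had a median of 34.4 RPM in PMAC and held 39.4% of its reads, and 67 of them stood at 1000 RPM or more. Genes called higher in EC had a median of 14.3 RPM in EC and held 32.9% of its reads, and 50 of them stood at 1000 RPM or more. There were 300 EC-higher genes without a read in PMAC and 181 PMAC-higher genes without a read in EC. The gene just inside the 1 RPM limit was Gm39473, at 1.00 RPM in its higher group, and the gene just outside was Sybu, at 0.999 RPM.

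**Figure D1:**
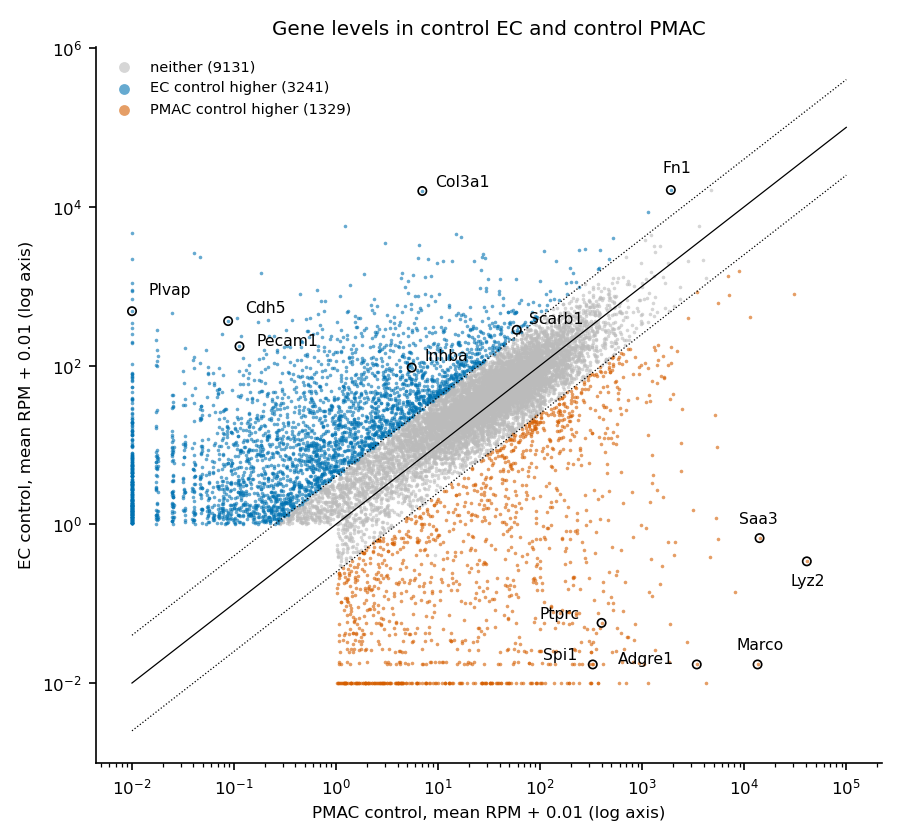
Mean level of each of 13701 genes in 3 PMAC control libraries (x, RPM + 0.01, log axis) and 3 EC control libraries (y, same unit). The solid line marks equal levels and the dotted lines a 4-fold difference. The 3241 genes called higher in EC (blue) spread down to 0 PMAC reads at the left edge, the 1329 called higher in PMAC (orange) spread to 0 EC reads at the bottom, and Scarb1 lies close to the upper dotted line.

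Among 30 endothelial identity genes, 27 reached 1 RPM in either cell type, 24 were called higher in EC and 0 higher in PMAC. Their median log2 ratio was 7.61. Plvap, which forms the diaphragms of fenestrae and caveolae, stood at 441, 516 and 493 RPM in EC and had 0 reads in PMAC, at least 21315-fold higher in EC. Egfl7, a secreted angiogenic factor, stood at 238 ± 19.3 RPM (SD, n = 3) in EC and 0.107 ± 0.0382 RPM in PMAC. Eng, a TGF-beta co-receptor of vessels, was lower in PMAC but not absent, at 551, 643 and 618 RPM in EC and 66.4, 60.8 and 60.5 RPM in PMAC. The 3 members called in neither direction were Cd93, S1pr1 and Icam2. Cd93, a lectin-like receptor of endothelium and myeloid cells, stood at 90.1 RPM in EC and 242 RPM in PMAC.

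Several defining endothelial genes were low or absent in the EC libraries. Kdr, the main VEGF receptor of endothelium, stood at 1.75, 2.14 and 1.67 RPM, and Nos3, the endothelial nitric oxide synthase, at 0.779, 1.24 and 1.45 RPM. Cldn5, the tight-junction claudin of endothelium, averaged 0.0238 RPM and Mmrn1 had 0 reads. Gpihbp1, which anchors lipoprotein lipase on capillaries, averaged 0.776 RPM. By contrast Flt1, the other VEGF-A receptor, stood at 112, 135 and 128 RPM in EC, and Tek, the angiopoietin receptor, at 12.1, 15.6 and 13.04 RPM.

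Endothelial transcription factors were called higher in EC in 12 of 19 members at 1 RPM and higher in PMAC in 1. Sox7, an endothelial SOX factor, stood at 126, 127 and 132 RPM in EC and 0.865, 0.804 and 2.33 RPM in PMAC. Erg, an ETS factor of endothelium, averaged 28.5 RPM in EC and had 0 reads in PMAC, whereas Fli1, an ETS factor of endothelium and blood cells, averaged 26.5 RPM in EC and 45.3 RPM in PMAC. Sox17 had 0 reads in both. Lmo2, a cofactor of blood and vessel development, was the member higher in PMAC, at 86.4 RPM against 15.8 RPM.

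Genes that mark other cells were also read in EC. Of 13 fibroblast markers 10 reached 1 RPM and 9 were called higher in EC, and the summed level of the list was 17078 to 19938 RPM in the EC libraries and 73.5 to 91.0 RPM in the PMAC libraries. Col3a1, a fibrillar collagen, made up most of it, at 14561, 16993 and 15811 RPM in EC and 6.55, 5.42 and 9.002 RPM in PMAC. Pdgfra, a growth factor receptor of fibroblasts, stood at 722, 886 and 803 RPM in EC and 8.81, 9.74 and 11.9 RPM in PMAC. Col1a2, whose product joins that of Col1a1 in type I collagen, went the other way, at 0.0472, 0.921 and 0.0749 RPM in EC and 21.8, 26.0 and 28.4 RPM in PMAC, while Col1a1 stood at 866 ± 85.6 RPM in EC. Tcf21 had 0 reads in EC. Of 13 mural cell and smooth muscle markers, 9 reached 1 RPM and 6 were called higher in EC, with a summed level of 423 to 525 RPM in EC and 23.8 to 24.01 RPM in PMAC. Pdgfrb accounted for most of that sum (351 ± 41.7 RPM in EC), and Higd1b had 0 reads and Kcnj8 0.0241 RPM. The part of such cells in the EC levels was not tested.

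The T and NK cell list had no member at 1 RPM, with sums of 0.802 to 1.15 RPM in EC and 0.522 to 1.01 RPM in PMAC. Neutrophil markers summed to 590 to 637 RPM in PMAC and 0.0428 to 4.34 RPM in EC, carried by Mmp8, Csf3r and S100a8. S100a9, Ly6g and Elane had 0 reads in PMAC. Epithelial markers summed to 6.37 to 6.56 RPM in EC, with Cdh1 at 4.43 RPM and Krt14, Cldn4 and Esrp1 at 0 reads. Mesothelial markers summed to 39.3 to 42.8 RPM in EC and 8.88 to 11.9 RPM in PMAC.

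The X-inactivation transcript Xist had the largest ratio toward EC, at 4262, 5195 and 4348 RPM with 0 reads in PMAC. The Y-linked gene Ddx3y stood at 67.7, 73.7 and 68.1 RPM in PMAC and had 2 reads in the 3 EC libraries. Kdm5d, Uty and Eif2s3y, also Y-linked, lay on the same side. The sex of the source cells is not in the labels, and sex, cell type and table all separate the same libraries.

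**Figure D2:**
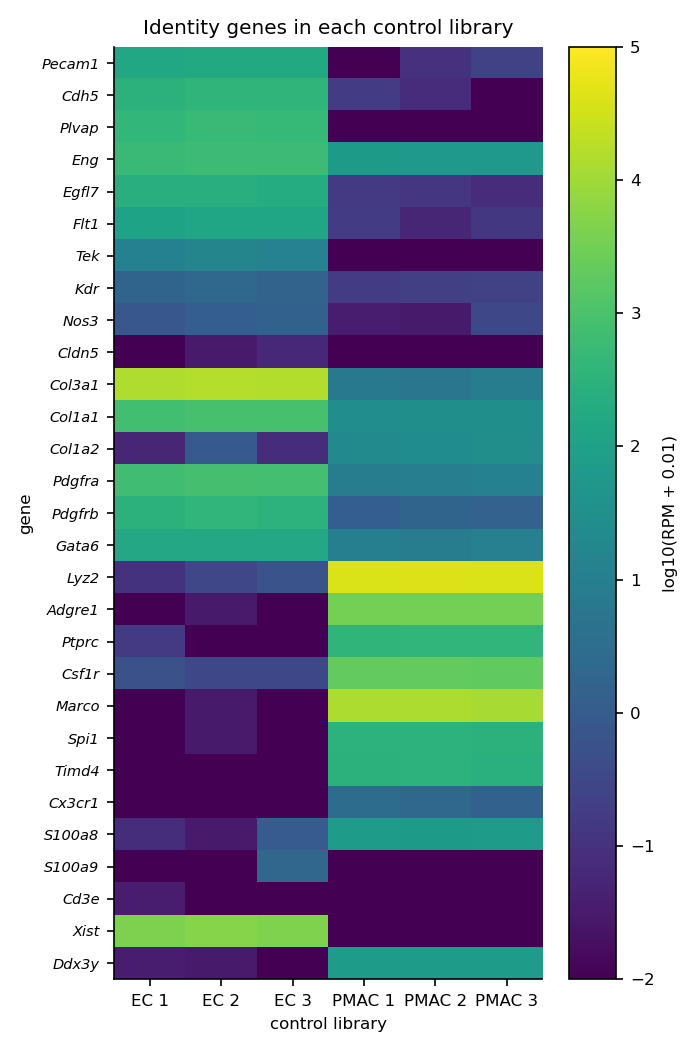
Level of selected identity genes (rows, log10 of RPM + 0.01) in each of the 6 control libraries (columns). Pecam1 to Flt1 are bright in the 3 EC libraries and, apart from Eng, dark in PMAC, Kdr, Nos3 and Cldn5 stay near or below 1 RPM apart from Kdr at 1.85 RPM in EC, and Lyz2, Adgre1, Ptprc, Csf1r, Marco and Spi1 are bright in PMAC, with S100a8 read and S100a9 at 0 there.

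Macrophage identity genes were called higher in PMAC in 27 of 28 members and higher in EC in 0, with a median log2 ratio of -12.13. Marco, a scavenger receptor that binds bacteria and particles, stood at 13975, 14047 and 12485 RPM in PMAC with 1 read in EC. Csf1r, the receptor that macrophages need for survival, stood at 2054, 2128 and 1927 RPM in PMAC and 0.543, 0.321 and 0.325 RPM in EC. Ctss, the protease that trims the class II invariant chain, stood at 1811, 1882 and 1882 RPM in PMAC and 0.0472, 0.0642 and 0.02496 RPM in EC. Mertk, a receptor for apoptotic cells, was the exception, at 50.6, 62.5 and 58.7 RPM in EC and 79.4, 93.3 and 86.6 RPM in PMAC.

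Of 21 myeloid transcription factors at 1 RPM, 16 were called higher in PMAC and 1, Nr4a1, higher in EC. Spi1 encodes PU.1, the ETS factor that specifies macrophages, and stood at 337, 328 and 318 RPM in PMAC with 1 read in EC. Ikzf1, the lymphoid and myeloid factor Ikaros, averaged 109.8 RPM in PMAC and 0.0478 RPM in EC.

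Markers of resident large peritoneal macrophages did not all lie on the PMAC side. Of 22 members at 1 RPM, 11 were called higher in PMAC and 7 higher in EC. The shares over all genes were 9.7% and 23.7%, so the PMAC count lay far above its share and the EC count much nearer to its own. Timd4, a phosphatidylserine receptor of resident macrophages, stood at 309.6, 332 and 274 RPM in PMAC and had 0 reads in EC, at least 13138-fold higher in PMAC. F10, coagulation factor X, averaged 509.5 RPM in PMAC and Saa3, an acute-phase serum amyloid, 14126 RPM. Gata6, which controls the resident programme in the peritoneum, stood at only 10.8, 9.21 and 11.4 RPM in PMAC and at 165, 165 and 169 RPM in EC. Small peritoneal macrophage and monocyte markers were lower in level, summing to a mean of 313 RPM, with 9 of 14 members at 1 RPM and all 9 called higher in PMAC.

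Promoter sequence was set beside the calls, and 4 promoters are shown because their genes define a side and their promoters hold the same short motif. AGGAAGT contains the GGAA core bound by ETS factors, the family of Erg, Fli1 and PU.1. Each sequence covers 250 bases before to 50 bases after the first listed start of a gene, 5′ to 3′ on the strand of the gene (RefSeq, GRCm38.p6), with AGGAAGT, or ACTTCCT on the other strand, in capitals. They lie at chr10:117282223-117282522 (minus strand) for Lyz2, chr3:95526536-95526835 (plus) for Ctss, chr2:26580833-26581132 (plus) for Egfl7 and chr5:147725962-147726261 (minus) for Flt1.
Lyz2: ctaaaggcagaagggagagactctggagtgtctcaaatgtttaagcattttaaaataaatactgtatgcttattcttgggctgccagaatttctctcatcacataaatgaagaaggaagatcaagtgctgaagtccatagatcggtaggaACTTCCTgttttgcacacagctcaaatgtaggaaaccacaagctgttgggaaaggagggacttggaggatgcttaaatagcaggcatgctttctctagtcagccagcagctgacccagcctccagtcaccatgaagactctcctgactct
Ctss: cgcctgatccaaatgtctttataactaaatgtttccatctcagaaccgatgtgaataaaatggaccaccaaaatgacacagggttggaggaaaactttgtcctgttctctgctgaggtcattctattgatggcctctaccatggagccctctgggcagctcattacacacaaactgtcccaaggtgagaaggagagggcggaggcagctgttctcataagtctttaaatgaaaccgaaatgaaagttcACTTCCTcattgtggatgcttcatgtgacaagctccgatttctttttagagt
Egfl7: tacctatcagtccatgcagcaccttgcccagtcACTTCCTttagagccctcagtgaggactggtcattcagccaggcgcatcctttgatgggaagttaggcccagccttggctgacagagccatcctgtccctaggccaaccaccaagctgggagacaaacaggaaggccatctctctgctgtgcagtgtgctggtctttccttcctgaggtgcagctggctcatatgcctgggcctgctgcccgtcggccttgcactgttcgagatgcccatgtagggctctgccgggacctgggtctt
Flt1: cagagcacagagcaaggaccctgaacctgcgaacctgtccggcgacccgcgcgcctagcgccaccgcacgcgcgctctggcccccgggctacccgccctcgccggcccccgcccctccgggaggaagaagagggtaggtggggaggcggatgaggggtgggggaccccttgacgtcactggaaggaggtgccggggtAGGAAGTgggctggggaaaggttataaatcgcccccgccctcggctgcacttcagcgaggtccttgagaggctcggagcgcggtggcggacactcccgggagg

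The motif began 100 bases before the start in Lyz2, 2 bases before it in Ctss, 217 bases before it in Egfl7 and 53 bases before it in Flt1. On either strand it was present in 9.6% of 27025 promoters, in 7.4% of 2245 promoters of genes called higher in EC, in 19.6% of 960 promoters of genes called higher in PMAC and in 8.6% of 7135 promoters of genes called in neither direction. The longer form GAGGAAGT, which overlaps it, was present in 1.9% of the EC-higher and 8.1% of the PMAC-higher promoters, against 3.3% of all. CCGGAAGT, another form with the GGAA core, was present in 3.0% of the EC-higher and 2.9% of the PMAC-higher promoters, 10.8% of those called in neither direction and 4.0% of all. GGGCGG, the GC box, was present in 61.1% of the EC-higher promoters, 47.2% of the PMAC-higher promoters, 67.4% of those called in neither direction and 35.9% of all. TGANTCA, the AP-1 motif, was present in 5.7%, 10.1%, 4.2% and 7.9% of the same sets. These are 5 of 14 motifs searched and were chosen after the shares were seen. A match is not evidence of binding.

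Extracellular matrix genes lay mostly on the EC side. Of 32 collagen genes at 1 RPM, 27 were called higher in EC and 2 higher in PMAC, with a summed mean level of 43583 RPM in EC and 169.6 RPM in PMAC. Col15a1 and Col4a1, both of basement membranes, averaged 5750.5 RPM and 4526 RPM in EC and 1.22 RPM and 15.1 RPM in PMAC. Besides Col1a2, Col19a1 was higher in PMAC (2.16 RPM, 0 reads in EC). Of 32 other matrix and crosslinking genes at 1 RPM, 25 were called higher in EC and 0 in PMAC. Fbln2 (fibulin-2), Bgn (biglycan) and Hspg2 (perlecan) averaged 4129, 3286 and 2556 RPM in EC. Thbs1 (thrombospondin-1) was abundant on both sides and called on neither, at 1892, 2405 and 2108 RPM in EC and 3994, 3881 and 3941 RPM in PMAC.

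Proteases of the matrix divided between the sides. Of 20 metalloproteinases and inhibitors at 1 RPM, 11 were called higher in EC and 4 in PMAC. Mmp2 (gelatinase A) averaged 785 RPM in EC and 39.9 RPM in PMAC. Mmp9 (gelatinase B), Mmp12 (macrophage elastase) and Mmp8 averaged 1554, 1128 and 356 RPM in PMAC and under 1 RPM in EC. Mmp14, a membrane-bound activator of Mmp2, averaged 669 RPM in EC and 939 RPM in PMAC and was called on neither side.

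Cell junction genes were called higher in EC in 13 of 20 members and in PMAC in 1 (Ocln, at 1.99 RPM). Of the caveolar coat, Cavin2 averaged 1022 RPM in EC and 1.37 RPM in PMAC. Cav1, caveolin-1 itself, averaged 160.0 RPM in EC and 40.9 RPM in PMAC, a ratio of 3.91, and was not called.

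**Figure D3:**
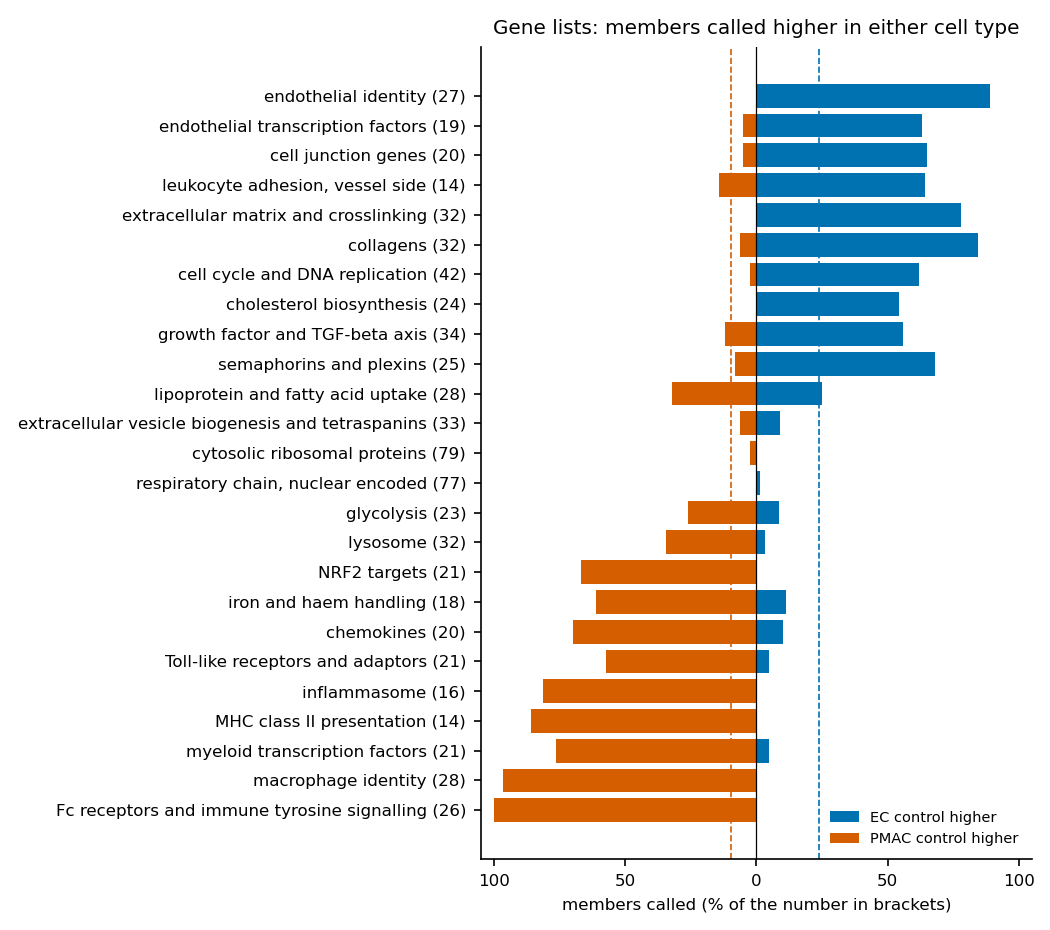
Share of the members of 25 gene lists called higher in EC (blue, to the right) or in PMAC (orange, to the left), in % of the members at 1 RPM in either, whose number stands in brackets. Dashed lines mark the shares over all genes, 23.7% and 9.7%. Identity lists and matrix genes lie far beyond the lines on their own side, while ribosomal, respiratory chain and vesicle biogenesis genes stay inside both.

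Of 28 genes of lipoprotein and fatty acid uptake at 1 RPM, 7 were called higher in EC and 9 in PMAC. The shares over all genes were 23.7% and 9.7%, so the EC count lay near its share and the PMAC count above it. The median log2 ratio was 0.21, and it was -0.27 and -0.28 under median-of-ratios and TMM scaling. Scarb1 (chromosome 5, 125277087 to 125341094) stood at 251.3, 290.0 and 302 RPM in EC and 58.0, 58.2 and 60.6 RPM in PMAC. Every EC library lay above every PMAC library, and the EC mean was 4.77-fold higher, a log2 ratio of 2.26 that became 1.78 and 1.77 under those scalings, below the 4-fold limit. Cd36, a class B relative of SR-BI that takes up fatty acids and oxidized LDL, stood at 1345, 1576 and 1518 RPM in PMAC and 0.0708, 0.257 and 0.175 RPM in EC. Scarb1 and Cd36 thus lay on opposite sides, although the Scarb1 call was lost under both scalings. Msr1, a class A scavenger receptor, averaged 1848 RPM in PMAC with 1 read in EC.

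Receptors of the LDL family differed by member. Vldlr, which takes up triglyceride-rich particles, stood at 52.9, 59.0 and 53.6 RPM in EC and 0.865, 0.436 and 0.326 RPM in PMAC. Lrp1, a large endocytic receptor for remnant particles, was called on neither side, at 2242, 2993 and 2778 RPM in EC and 1173, 1354 and 1485 RPM in PMAC. Lpl, the lipase that hydrolyses chylomicron triglyceride, stood at 26.1, 28.6 and 30.0 RPM in EC and 2154, 2703 and 2505 RPM in PMAC, 87.0-fold higher in PMAC. Inside the cell, the fatty acid binding proteins Fabp4 and Fabp5 averaged 1212 and 2733 RPM in EC and 40.7 and 109 RPM in PMAC. The acyl-CoA synthetase Acsl1 averaged 12.3 RPM in EC and 464 RPM in PMAC, and Acsl3 34.7 RPM in EC and 4.90 RPM in PMAC.

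**Figure D4:**
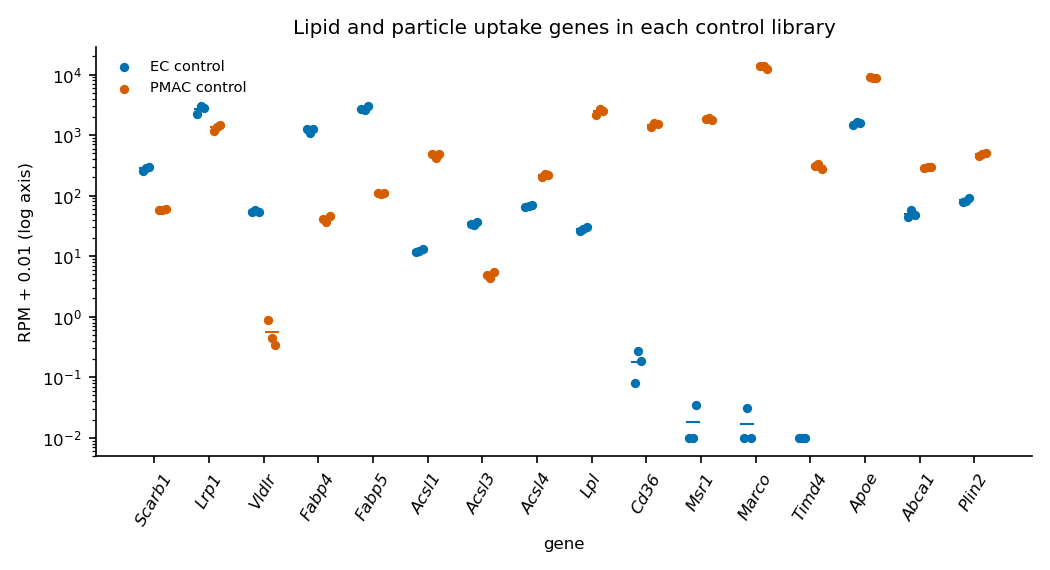
Level of lipid and particle uptake genes in each control library (points, RPM + 0.01, log axis) with the mean of 3 libraries (line), EC in blue and PMAC in orange. Scarb1, Vldlr, Fabp4 and Fabp5 lie higher in EC, and Lpl, Cd36, Msr1, Marco, Timd4, Apoe and Abca1 lie higher in PMAC. Lrp1 lies higher in EC with no overlap, by less than 4-fold.

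Cholesterol synthesis genes lay mostly on the EC side. Of 24 biosynthesis genes and regulators, 13 were called higher in EC and 0 in PMAC, with a median log2 ratio of 2.06. Hmgcs1, an early enzyme of the pathway, stood at 226, 224 and 265 RPM in EC and 32.0, 32.2 and 30.0 RPM in PMAC, and Insig1, a sterol-dependent inhibitor of its induction, at 316 ± 31.2 and 37.8 ± 0.533 RPM. Of 18 efflux genes and LXR targets at 1 RPM, 3 were called higher in PMAC and 2 in EC, against 9.7% and 23.7% of all genes. Without the fold criterion, 12 of the 18 lay higher in PMAC with no overlap and 5 in EC, against 30.4% and 59.6% of all genes. In this list Apoe stood at 1452, 1648 and 1611 RPM in EC and 8962, 8650.1 and 8872 RPM in PMAC. Abca1, the cholesterol transporter, stood at 44.9, 57.9 and 47.5 RPM in EC and 282, 297 and 297 RPM in PMAC. Scd1, a desaturase, went the other way, at 243 RPM in EC and 4.03 RPM in PMAC. Of 16 lipid droplet coat and triglyceride genes at 1 RPM, 3 were called higher in EC and 1 in PMAC, against 23.7% and 9.7% of all genes. Without the fold criterion, 7 lay higher in EC with no overlap and 7 in PMAC. The member called higher in PMAC was Plin2, a lipid droplet coat protein, at 481 RPM in PMAC and 83.5 RPM in EC. Those called higher in EC were G0s2, Mgll and Lpin1.

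Few genes of vesicle release were called on either side at the 4-fold limit. Of 33 genes of extracellular vesicle biogenesis and tetraspanins, 3 were called higher in EC and 2 in PMAC. The shares over all genes were 23.7% and 9.7%. Their median log2 ratio was -0.26, against 0.54 over all genes. Without the fold criterion, 14 of the 33 lay higher in EC with no overlap and 18 in PMAC, against 59.6% and 30.4% of all genes. Cd63 averaged 313 RPM in EC and 374 RPM in PMAC, Cd81 479.6 and 276 RPM, and Cd9 474 and 343 RPM. All are tetraspanins of vesicle membranes. The genes called were Rab27b, Tspan8 and Smpd3 toward EC and the leukocyte tetraspanins Cd37 and Cd53 toward PMAC. Rab27b, a GTPase of vesicle secretion, stood at 8.09, 8.93 and 8.17 RPM in EC and 0.0701, 0.184 and 0.130 RPM in PMAC, and its relative Rab27a averaged 9.06 RPM in EC and 21.0 RPM in PMAC. Of 19 miRNA processing and sorting genes at 1 RPM, 1 was called on each side, Tnrc6b toward EC and Zc3h12a toward PMAC.

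Receptors for vesicles and apoptotic cells were listed with their bridging and signalling proteins. Of 20 members at 1 RPM, 6 were called higher in EC and 6 others in PMAC, against 23.7% and 9.7% of all genes. Gas6, the bridging ligand of the TAM receptors, stood at 575, 589 and 605 RPM in EC and 4.47, 5.70 and 5.98 RPM in PMAC. Its receptor Axl followed it, at 417, 466 and 486 RPM in EC and 53.2, 60.2 and 56.7 RPM in PMAC. Marco, Msr1, Timd4, Cd36 and Cd300lf were the receptors on the PMAC side, with the signalling protein Dock2 at 209 RPM.

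Several ligands and their receptors lay on opposite sides. Csf1, the ligand of Csf1r, stood at 444, 476 and 470.3 RPM in EC and 37.9, 35.8 and 46.5 RPM in PMAC. Cxcl12, a chemokine of stroma and vessels, stood at 3244, 3536 and 3571 RPM in EC and 2.22, 2.53 and 4.35 RPM in PMAC, whereas its receptor Cxcr4 averaged 0.0562 RPM in EC and only 1.67 RPM in PMAC. Cx3cl1 (fractalkine) averaged 158 RPM in EC, and its receptor Cx3cr1 2.22 RPM in PMAC with 0 reads in EC. Vcam1, which binds the integrin chain Itga4, averaged 1468 RPM in EC and 4.47 RPM in PMAC. Itga4 averaged 12.9 RPM in EC and 215 RPM in PMAC. Icam1, a ligand of the beta-2 integrins, was lower in EC, at 12.1, 12.8 and 11.2 RPM against 285, 263 and 274 RPM in PMAC, and the shared integrin chain Itgb2 averaged 2379.5 RPM in PMAC and 4.68 RPM in EC. Of the endothelial selectins, Selp averaged 54.8 RPM and Sele 8.41 RPM in EC.

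A mixed list of growth factor genes and genes of the TGF-beta axis had 19 of 34 members called higher in EC and 4 in PMAC. Tgfb2 and the receptor gene Tgfbr2 averaged 169 and 2075 RPM in EC and 2.93 and 142 RPM in PMAC. Tgfb1 lay on the other side, at 75.8 RPM in EC and 334 RPM in PMAC, with Igf1 at 27.8 and 343 RPM. Of 25 semaphorins and plexins at 1 RPM, 17 were called higher in EC and 2, Sema4a and Sema4d, higher in PMAC. Of 13 Eph receptors and ephrins at 1 RPM, 11 were called higher in EC and 0 in PMAC.

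Innate immune sensing was mostly PMAC-sided. All 26 Fc receptor and immune tyrosine signalling genes at 1 RPM were called higher in PMAC, led in level by Clec4e (5394 RPM), Clec4n (2729 RPM) and Clec4d (2073 RPM), C-type lectin receptors of microbial glycolipids and glycans. Of 21 Toll-like receptor and adaptor genes, 12 were called higher in PMAC and 1, the lipopolysaccharide-binding protein Lbp, higher in EC (289 against 2.63 RPM). Tlr4 itself was not called, at 43.4 RPM in EC and 80.8 RPM in PMAC, while its co-receptor Cd14 averaged 5.75 RPM in EC and 454 RPM in PMAC. Tlr13 and Tlr7, endosomal receptors of RNA, averaged 353 and 223 RPM in PMAC and under 1 RPM in EC.

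Of 16 inflammasome genes 13 were called higher in PMAC and 0 in EC. Il1b, the cytokine that caspase-1 matures, stood at 374, 247 and 355 RPM in PMAC with 1 read in EC, and Nlrp3, a sensor of membrane damage and crystals, averaged 227 RPM in PMAC and 0.0657 RPM in EC. Gsdmd, the pore-forming protein of pyroptosis, was not called, at 82.6 RPM in EC and 93.2 RPM in PMAC. Of 21 IL-1, IL-6 and TNF ligand and receptor genes at 1 RPM, 13 were called higher in PMAC and 4 in EC. The shares over all genes were 9.7% and 23.7%, and the median log2 ratio of the list was -2.75. The 4 on the EC side were Il33 and the receptor genes Il1r1, Osmr and Lifr. Il1r1, the signalling IL-1 receptor, averaged 147 RPM in EC and 8.03 RPM in PMAC, and Osmr and Lifr averaged 58.5 and 261 RPM in EC and 1.54 and 2.51 RPM in PMAC. Osm, the ligand of Osmr, averaged 16.05 RPM in PMAC and 0.00832 RPM in EC, with 1 read in EC.

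Chemokines were called higher in PMAC in 14 of 20 members and in EC in 2, Cxcl12 and Cx3cl1. Cxcl2, a neutrophil attractant, stood at 745, 637 and 792 RPM in PMAC and 0, 0.0856 and 0 RPM in EC. Ccl2, the monocyte attractant, was not called, at 23.5 RPM in EC and 85.6 RPM in PMAC. Of 27 type I interferon response genes, 6 were called higher in EC and 2 in PMAC, near the shares over all genes (23.7% and 9.7%). Ifit3 averaged 58.2 RPM in EC and 2.03 RPM in PMAC. Of 14 class II presentation genes at 1 RPM, 12 were called higher in PMAC, although the transactivator Ciita averaged 0.992 RPM there and the class II chain H2-Ab1 101 RPM. Complement was PMAC-sided in 11 of 18 members, with C3 at 59.4 RPM in EC and 1400.4 RPM in PMAC. It was EC-sided in 5, among them the membrane inhibitors Cd55 (218 against 1.00 RPM) and Cd59a (55.5 against 1.15 RPM). The shares over all genes were 9.7% and 23.7%, so the EC count of complement lay near its share.

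Antioxidant and iron genes were far more abundant in PMAC. Of 21 NRF2 targets and regulators 14 were called higher in PMAC and 0 in EC, with a median log2 ratio of -3.28. Hmox1, which degrades haem, stood at 23.2, 25.3 and 23.7 RPM in EC and 4979.9, 4958 and 5496 RPM in PMAC, and Slc7a11, the cystine importer, at 8.78, 11.0 and 12.0 RPM and 2266, 2272 and 2593 RPM. Nfe2l2 and Keap1, which encode NRF2 and its inhibitor, were not called, at 235 and 71.9 RPM in EC and 252 and 60.3 RPM in PMAC. Of 18 iron and haem genes at 1 RPM, 11 were called higher in PMAC and 2 in EC. Fth1, the ferritin heavy chain, stood at 31226, 30130.0 and 29974 RPM in PMAC and 799, 737 and 858 RPM in EC. Ferritin and ribosomal protein genes have many near-identical pseudogene copies, and how reads shared with them were counted is not given in the sources used here.

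Lysosomal genes were read on both sides and lay mostly higher in PMAC. Of 32, 11 were called higher in PMAC and 1 (Ctsf) in EC, against 9.7% and 23.7% of all genes. Without the fold criterion, 25 lay higher in PMAC with no overlap and 6 in EC, against 30.4% and 59.6% of all genes. Their median log2 ratio was -1.28, against 0.54 over all genes. Ctsb averaged 610.5 RPM in EC and 5524 RPM in PMAC, whereas Lamp2 averaged 625 and 534 RPM. Glycolysis showed 6 of 23 members called higher in PMAC and 2 in EC, with Hk3 at 219 RPM in PMAC and 0.0162 RPM in EC. Without the fold criterion, 18 of the 23 lay higher in PMAC with no overlap and 4 in EC. Ldha was not called, at 472 RPM in EC and 600.1 RPM in PMAC.

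Cell cycle genes were called higher in EC in 26 of 42 members and in PMAC in 1. Top2a and Cdk1, of replicating and dividing cells, averaged 176 and 44.7 RPM in EC and 7.99 and 3.06 RPM in PMAC. Ccnd1 stood at 366, 379.8 and 407 RPM in EC and 17.1, 25.8 and 18.9 RPM in PMAC. Mki67 was read in PMAC too, at 72.5, 60.3 and 83.1 RPM against 237, 249.7 and 292 RPM in EC, and was not called. Cdkn2b, an inhibitor of the G1 kinases, was the member higher in PMAC (62.6 against 1.83 RPM).

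Few genes of translation and respiration were called at the 4-fold limit, against 23.7% and 9.7% of all genes. Of 79 cytosolic ribosomal protein genes 0 were called higher in EC and 2 higher in PMAC (the paralogs Rpl39l and Rps4l), with a median log2 ratio of 0.65 (0.18 and 0.17 under median-of-ratios and TMM scaling). Of 77 nuclear respiratory chain genes 1 was called higher in EC (Cox6b2, 2.12 against 0.207 RPM) and 0 in PMAC. Smaller differences were common on RPM. Without the fold criterion, 69 of the 79 ribosomal genes lay higher in EC with no overlap and 3 in PMAC. Of the 77 respiratory chain genes, 13 lay higher in EC and 47 in PMAC. The shares over all genes were 59.6% and 30.4%. The 6 genes nearest to a ratio of 1 among those at 300 RPM or more in both were Eif4g1, Rps25, Caprin1, App, Ssr1 and Rrbp1. Eif4g1, a scaffold of translation initiation, averaged 540.0 ± 21.7 RPM in EC and 538 ± 3.30 RPM in PMAC.

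Whether the order of the cell types held was read in libraries that the calls had not used. The genes had been chosen at 4-fold or more, and the chylomicron libraries stand in the same tables as the controls. A kept order was therefore likely beforehand. In controls without the fold criterion, 59.6% of all genes lay apart toward EC and 30.4% toward PMAC. The share of all genes that kept their order was not computed. Of the 3241 genes called higher in EC controls, 3209 (99.0%) were higher in all 3 EC chylomicron libraries than in all 3 PMAC chylomicron libraries, and 90.6% were called again. Of the 1329 genes called higher in PMAC controls, 1297 (97.6%) kept their order and 81.1% were called again. Between the SRBI knockdown groups, whose EC libraries stand in a further table, the shares that kept their order were 98.1% and 96.3%, and 81.2% and 77.6% were called again. In the knockdown groups 1 gene changed from EC to PMAC (0.0309%), Flrt3, and 4 changed from PMAC to EC (0.301%), among them Itga7, Gm35853 and 0610040J01Rik, all named after their values were seen.

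Between the chylomicron groups 1 gene (0.0309%) changed from called higher in EC to called higher in PMAC, and 0 of the PMAC-higher genes (0.0%) did the reverse. It was Inhba, which encodes the activin A subunit, a TGF-beta family ligand (chromosome 13, 16004256 to 16031609). In controls Inhba stood at 89.1, 93.7 and 99.8 RPM in EC and 5.87, 4.92 and 5.72 RPM in PMAC. In the chylomicron libraries it stood at 92.2, 101 and 108 RPM in EC and 645, 585 and 749 RPM in PMAC. The EC levels of both conditions overlapped, and all 3 PMAC chylomicron libraries lay far above the PMAC controls. Within the PMAC table the log2 fold change was 7.01 ± 0.09 (SE, limma on log2 of the deposited value + 1, adjusted p = 9.66e-19), and in EC it was 0.06 ± 0.08 (adjusted p = 0.740). At a fold limit of 8 the gene was not called, since its ratio in the chylomicron libraries was -2.72 on the log2 scale.

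**Figure D5:**
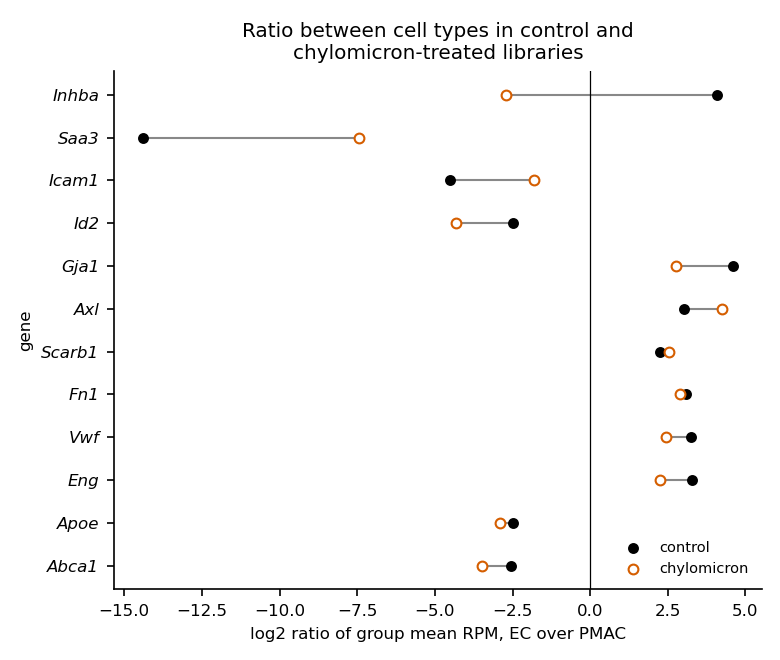
Log2 ratio of the mean RPM of EC over PMAC for 12 genes in control (black) and chylomicron-treated (open orange) libraries, 3 libraries per group. Inhba crosses the line of equal levels, from 4.10 to -2.72, Saa3 moves from -14.39 to -7.45 without crossing it, and the other genes keep their side.

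Differences between the cell types were set beside those of treatment within a table. Over 11886 genes measured in all 3 comparisons, the median absolute log2 difference was 0.94 between the cell types, 0.12 for EC chylomicron against EC control and 0.20 for PMAC chylomicron against PMAC control. A difference of at least 2 on the log2 scale was seen in 2771, 28 and 178 of them. The measures differ. The cell type value is a ratio of group mean RPM, and the treatment values are limma changes in the deposited values. The median signed value over all genes was 0.54 between the cell types, -0.02 in EC and -0.01 in PMAC. The 0.54 became 0.04 and 0.03 with median-of-ratios and TMM scaling, under which these sizes were not computed. Cell type and table cannot be told apart here. By limma with Benjamini-Hochberg adjustment, 805 of 15595 genes (5.16%) rose and 512 (3.28%) fell in EC, and 2178 of 13630 genes (16%) rose and 2372 (17.4%) fell in PMAC. The EC count of 1317 was 744 without EC control replicate 1, 803 without EC control replicate 2 and 587 without a trend in the variance.

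Of the 6 markers, those that passed the test in treated PMAC were Lyz2, whose log2 fold change in PMAC was -0.79 ± 0.08 (SE, limma, adjusted p = 4.44e-07), and Ptprc, which fell by 0.13 ± 0.05 (adjusted p = 0.0497). The Ptprc call was lost in 9 of 14 alternatives, with adjusted p of 0.0503 to 0.180 in limma or edgeR, among them those without PMAC control replicate 2 or 3 or without PMAC chylomicron replicate 1 or 2. Cdh5, Pecam1 and Fn1 did not pass the test in EC, at -0.30 ± 0.13, -0.09 ± 0.11 and -0.43 ± 0.26 (adjusted p = 0.235, 0.745 and 0.432), nor did Adgre1 in PMAC, at 0.02 ± 0.05 (adjusted p = 0.790). Scarb1 fell in PMAC by 0.43 ± 0.07 (adjusted p = 1.98e-04) and did not pass in EC, at -0.29 ± 0.11 (adjusted p = 0.147). Without EC chylomicron replicate 2 the EC value was -0.41 and passed (limma, adjusted p = 0.0107).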

How the data were processed

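Polyadenylated RNA of EC and PMAC was sequenced in 18 libraries, 3 per group. Per the submitters' processing notes, reads were demultiplexed with bcl2fastq, aligned to mm10 (GRCm38) with STAR 2.7.3a and counted with featureCounts of Subread 1.6.3. The strand setting is not given in the sources used here. The deposited values are a normalized signal per gene, read counts that the authors divided by 1 factor per library, separately in each table. Whole reads were recovered from the deposited values in every library, within 0.01 reads, and rescaled to RPM. RPM is not corrected for transcript length, so levels are compared between libraries and not between genes.

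The members and the 66 gene lists were chosen with earlier results of these data known. The rule named the markers, Scarb1, the 10 called genes per direction with the largest ratio at 100 RPM or more, up to 5 called members per list and direction at 10 RPM or more, the 6 genes nearest to a ratio of 1 and the genes called in opposite order. It also named the 10 most abundant genes per cell type by reads per kilobase, and the share of reads was used instead because transcript lengths were not at hand. Uncalled list members, markers at or near 0, and further genes such as Cdh1, Kdr, Cdk1, Mmp2, Clec4e, Col19a1 and the heart genes were named after their values were seen. All 18 replicate pairs differed by more than sampling noise, by unequal amounts. The chi-square of the reads per degree of freedom was 143.5 and 146.4 for EC control replicate 1 against replicates 2 and 3. It was 18.78 between EC control replicates 2 and 3, and 9.749 to 11.94 between PMAC control replicates.

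Within a table, limma 3.58.1 (trend, log2 of the deposited value + 1, mean of at least 10) was fitted across all genes with Benjamini-Hochberg adjustment, over 6 EC and 9 PMAC libraries. These p-values measure the spread between libraries, which may be technical. edgeR 4.0.16 and DESeq2 1.42.0 on the recovered reads were alternatives, in R 4.3.3. The fits and the call rule were tested on simulated data. Promoters came from RefSeq (GRCm38.p6).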

Additional observations from a re-analysis of the deposited data

Results flagged for a closer look

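In 196 genes called within both tables, the change between chylomicron-treated and control libraries had opposite signs in EC and PMAC, with all treated libraries beyond the controls in each. Described here are 4 of them, chosen after their values were seen. The difference between the 2 cell types was not tested, since they stand in separate tables. The labels do not say whether both cell types received the same agent. Icam1, a ligand of leukocyte integrins, rose in EC with a log2 fold change of 2.20 (limma, adjusted p = 9.74e-09) and fell in PMAC, at -0.37 (adjusted p = 8.35e-06). Its level went from 12.0 ± 0.812 to 56.4 ± 3.51 RPM in EC and from 274 ± 11.3 to 195.7 ± 9.01 RPM in PMAC (SD, n = 3).

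Id2, an inhibitor of helix-loop-helix factors, changed by -1.28 in EC and 0.71 in PMAC (limma, adjusted p = 3.90e-05 and 4.32e-08). Gja1, the gap junction protein connexin 43, changed by -0.43 in EC and 1.52 in PMAC (adjusted p = 0.0122 and 1.11e-10). Axl changed by 0.42 in EC and -0.68 in PMAC (adjusted p = 0.0243 and 1.24e-07). Of the 484 genes called within both tables, 277 moved the same way and 207 opposite ways. The 484 were 46.0% of the EC calls and 11.9% of the PMAC calls among 12461 genes in both fits.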

How the results depend on the processing

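Of the cell type counts, genes higher in EC numbered 5557 with no minimum beyond 1 read and 5281 at 2-fold, and genes higher in PMAC 2178 at 2-fold. Median-of-ratios and TMM scaling gave 2625 and 2611 higher in EC and 1657 and 1672 higher in PMAC, and 6 named calls were lost under both (Acta2, C1s1, Cldn12, Garnl3, Ptgis and Scarb1). At 2-fold, 7234 genes kept their order in the chylomicron libraries and 8 were called in opposite order, against 0 at 8-fold. Leaving out 1 library at a time gave 3232 to 3301 genes higher in EC, 1314 to 1335 higher in PMAC, 4494 to 4559 keeping their order and 1 in opposite order. Within tables, leaving out 1 library gave 744 to 1549 calls in EC and 3663 to 4437 in PMAC. EC calls numbered 587 without a variance trend, 1301 by edgeR and 1610 by DESeq2, and PMAC calls 4489 by edgeR and 4698 by DESeq2. The sign turned for Pecam1 in EC without EC chylomicron replicate 3 (0.0048, lowest value -0.22 among the libraries left out) and for Adgre1 in PMAC without PMAC chylomicron replicate 2 (-0.0251, highest value 0.0551). The cause was not tested. The labels do not say whether replicate numbers pair the samples, and 3 libraries per group are too few to decide it. Same-numbered deviations correlated at -0.161 to 0.175 in EC and 0.00965 to 0.0746 in PMAC. A replicate block gave 1581 calls in EC and 4270 in PMAC. The Ptprc call in PMAC was lost in 9 of 14 alternatives. Ifnar2 lost its call without EC control replicate 1 or PMAC control replicate 1, and mt-Cytb without EC control replicate 1.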

Other observations

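Beyond the gene lists, the transcripts that lay highest toward EC by ratio included genes not usually listed as endothelial. Muc5b and Muc5ac, which encode secreted gel-forming mucins of airway and gut, averaged 2194 and 1102 RPM in EC with 0 reads in PMAC. Muc5b stood at 1914, 2289 and 2379.5 RPM in the 3 EC libraries. Aldh3a1, an aldehyde dehydrogenase of cornea and airway, stood at 2471, 2558 and 2859 RPM there and had 4 reads in PMAC. The epithelial genes Cdh1 and Epcam averaged 4.43 and 0.00832 RPM beside them. Clca3a1, Frem1, Svep1 and Scara5 averaged 688, 885, 857 and 454 RPM in EC.

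A group of genes known from heart development was read in the same EC libraries, chosen here after its values were seen. Tnnt2, cardiac troponin T, averaged 1447 RPM in EC and 0.173 RPM in PMAC. The transcription factor genes Tbx20, Gata4, Hand2 and Tbx5 averaged 284, 272, 114 and 28.7 RPM in EC and 0.00765, 0.506, 0.985 and 0 RPM in PMAC, beside Gata6 at 166 RPM. The labels give no vessel bed for the EC libraries.

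In PMAC, Saa3 took 14126 RPM and stood at 0.659 RPM in EC. Serpinb2, a protease inhibitor of activated macrophages, averaged 4595 RPM in PMAC and 0.382 RPM in EC. Acod1, the itaconate-producing enzyme, averaged 1160.0 RPM in PMAC, Arg1 318 RPM and Nos2 0.237 RPM. Pla2g7, a lipoprotein-associated phospholipase, averaged 3130.5 RPM in PMAC and 1.49 RPM in EC.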
